A study of Mus musculus with 6 samples.

Results

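The genes described here make, elongate, desaturate and esterify fatty acids, and were taken by gene name from the table of counts per gene. They are Fasn, Acaca, Acly, Scd1, Scd2, Scd3, Elovl6, Thrsp, Me1 and Dgat2, 10 of 55291 genes. Dorsal skin RNA was sequenced from 3 Tsk and 3 wild-type (WT) mouse samples at day 40. The Tsk samples carry the strain name B6.Cg-Fbn1Tsk/J and the genotype Fbn1+/-, and the WT samples the strain name C57BL/6 and the genotype wild type, with no treatment given for either. Tsk, tight skin, is known as an internal duplication in Fbn1, the fibrillin 1 gene, whereas the label's notation usually marks a lost copy, so it is assumed here that these mice had 1 Tsk copy. The allele is carried in every cell of the body, and the labels do not say that each sample came from a separate mouse, and p-values then cover the spread among samples, which may be technical.

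New fatty acids are built in the cytosol in a fixed order. ATP citrate lyase (Acly) splits citrate to acetyl-CoA, acetyl-CoA carboxylase 1 (Acaca) makes malonyl-CoA, and fatty acid synthase (Fasn) joins these units to palmitate with NADPH, part of which malic enzyme 1 (Me1) supplies. Elovl6 lengthens palmitate to stearate, stearoyl-CoA desaturases put in the first double bond, and Dgat2 closes triglyceride synthesis, while Thrsp is a small protein that rises with lipogenesis in fat and liver. In mouse skin this pathway runs mainly in the fat layer under the dermis and in sebaceous glands, whose lipids coat hair and skin, and Scd1 loss in mice is known to leave sebaceous glands shrunken.

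Library totals ran from 17561453 to 19219814 counts. Fbn1 itself was higher in Tsk, at 1761 ± 302 against 303 ± 45.6 CPM (counts scaled to a common library size) in WT (SD, n = 3 each), with a log2 difference of 2.54 ± 0.24 (SE, edgeR adjusted p = 0.00401). Counts per gene cannot separate the duplicated transcript from the normal one. CPM here are scaled to library totals adjusted by TMM, a correction for differences in RNA composition. The 10 epidermis markers and the 10 dermal fibroblast markers listed to check the tissue each had counts in every library. Skeletal muscle markers, from the muscle sheet under the skin, held 14.4 to 16.5% of counts in Tsk and 16.7 to 24.3% in WT. The brown fat marker Ucp1 did not pass the filter on low counts. The tissue is whole skin, so more cells of a type and more RNA per cell cannot be told apart.

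The mouse stearoyl-CoA desaturase genes lie side by side on chromosome 19 (mm10 build), with Scd3 from 44203269 to 44244016, Scd2 from 44293674 to 44306864 and Scd4 from 44333092 to 44346743 on the plus strand, and Scd1 from 44394455 to 44407879 on the minus strand. Their coding sequences are alike, with 89.6% identical positions between Scd1 and Scd2, 90.4% between Scd1 and Scd3 and 84.1% between Scd1 and Scd4. The first 60 coding bases of each are shown because they let a reader see how close the copies are and where reads can tell them apart. Capitals mark bases that differ from Scd1, or have no partner in it, in an alignment of the whole coding sequences.
Scd1: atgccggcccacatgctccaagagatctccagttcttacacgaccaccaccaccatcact
Scd2: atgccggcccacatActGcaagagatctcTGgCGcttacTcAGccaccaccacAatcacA
Scd3: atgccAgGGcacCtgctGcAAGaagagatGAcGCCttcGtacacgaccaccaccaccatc
Scd4: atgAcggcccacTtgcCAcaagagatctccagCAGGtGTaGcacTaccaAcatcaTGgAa
Over whole transcripts, 4.66% of the 50-base windows of Scd1 occurred in another of the 4 transcripts, as did 3.79% for Scd2, 6.37% for Scd3 and 3.44% for Scd4. A single read of at most 50 bases within a shared window could not be assigned to 1 copy. The window length was set here and not taken from the reads, and the counting rule is not given in the sources used here. Scd1 had 16.3 to 431 times the counts of Scd3, and Scd4 had fewer counts than Scd3 in every library, so the values of both are uncertain on that account. Scd2 also had fewer counts than Scd1 in every library, at 2816 against 120624 in Tsk replicate 5. Its values carry the same uncertainty, and the part of Scd1 reads in them was not tested.

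Tsk skin held more lipogenic RNA than WT skin, but by an amount that 1 library set. The summed level of the 10 genes was 1661, 10930 and 1172 CPM in Tsk replicates 4, 5 and 6, against 992, 678 and 830 CPM in WT replicates 1, 2 and 3. All 3 Tsk sums lay above all 3 WT sums, and Tsk replicate 5 stood far above the other 2. Fasn and Scd1 alone made up 62.0, 82.1 and 53.2% of these sums in Tsk and 50.6, 43.8 and 46.0% in WT. All 10 genes passed the filter on low counts. Scd2 was the 1 gene of the 10 that passed the test (edgeR quasi-likelihood F-test, adjusted p under 0.05 over all 19971 genes tested), and it was higher in Tsk, where 3.42% of all genes were called, 2.72% higher and 0.696% lower. The 10 genes had a median log2 fold change of 1.56, against -0.03 over all genes tested. Every one of the 10 had a log2 fold change above 0, as did 47% of all genes, and in 6 of the 10 all Tsk libraries exceeded all WT libraries, as in 14.1% of all genes. A log2 fold change of at least 1 was found for 6 of the 10 and for 4.6% of all genes. Without Tsk replicate 5 the median of the 10 was 0.79, and Scd2, Thrsp and Dgat2 passed, where 1.66% of all genes were called higher. Scd2 and Dgat2 passed without Tsk replicate 6 (1.59% of all genes higher), Scd2 alone without Tsk replicate 4 (2.13%) or WT replicate 1 (3.71%), and none without WT replicate 2 (1.25%) or WT replicate 3 (0.227%). With DESeq2, Scd2, Acly and Dgat2 passed, where 5.5% of all genes were called higher.

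**Figure D1:**
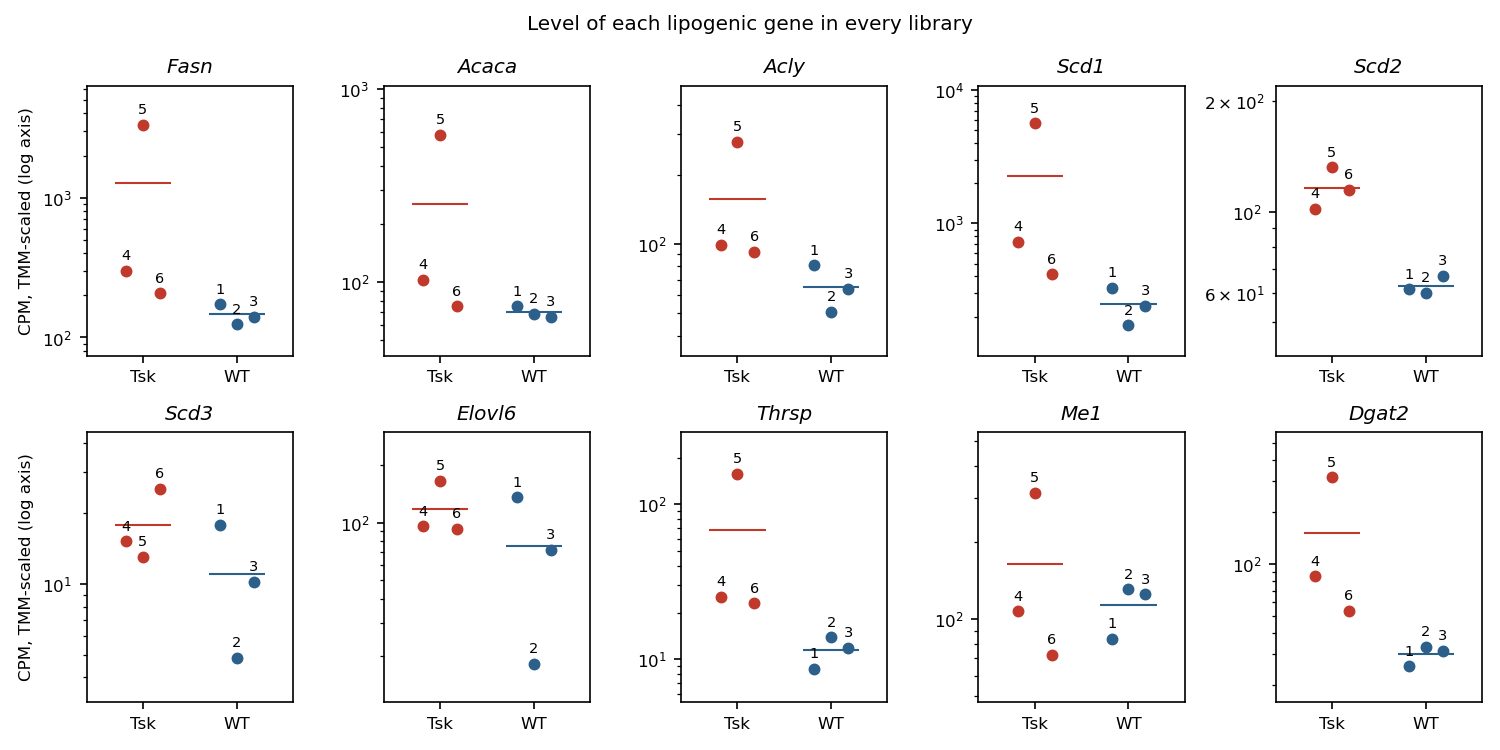
TMM-scaled CPM of each of the 10 genes on a logarithmic axis of its own, with 1 point per library, labelled by replicate number, and a line at the group mean (Tsk red, WT blue). Tsk replicate 5 is the highest library for 9 of the 10 genes and not for Scd3, and the Scd2 points are the tightest within both groups.

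Among the enzymes that build palmitate, Acly, Acaca and Fasn each had their highest level in Tsk replicate 5, and none passed the test. Acly, on chromosome 11 from 100476353 to 100528000, stood at 99.1, 278 and 92.3 CPM in Tsk and 80.6, 50.7 and 63.8 CPM in WT. The groups did not overlap, and the log2 fold change was 1.27 ± 0.42 (SE, edgeR adjusted p = 0.146). Acaca, on the same chromosome from 84129672 to 84401651, stood at 103, 580 and 75.2 CPM in Tsk and 75.4, 68.7 and 66.2 CPM in WT. Here Tsk replicate 6 fell inside the WT range, and the log2 fold change was 1.85 ± 0.73 (edgeR adjusted p = 0.220), or 0.34 ± 0.17 without Tsk replicate 5 (edgeR adjusted p = 0.370).

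Fasn, the synthase that these 2 enzymes feed, had the widest spread within Tsk. Located at 120805846 to 120824547 of chromosome 11, minus strand, it held 5782, 71305 and 4424 counts in Tsk and 3116, 1918 and 2273 counts in WT, which made 299.7, 3334 and 208 CPM in Tsk and 173, 124 and 141 CPM in WT. Tsk replicate 5 was 13.1 times the mean of the other Tsk libraries, which still exceeded every WT library. Its log2 fold change, 3.13 ± 1.04 (SE, edgeR adjusted p = 0.154), became 0.79 ± 0.23 without that library (edgeR adjusted p = 0.137).

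The 250 bases before the Fasn start site, from RefSeq on the GRCm38.p6 build, are shown as the promoter of the gene that varied most between Tsk libraries. They run on the minus strand at chr11:120824548-120824797, and capitals mark CCAAT or its reverse complement, the letters bound by the factor NF-Y.
Fasn: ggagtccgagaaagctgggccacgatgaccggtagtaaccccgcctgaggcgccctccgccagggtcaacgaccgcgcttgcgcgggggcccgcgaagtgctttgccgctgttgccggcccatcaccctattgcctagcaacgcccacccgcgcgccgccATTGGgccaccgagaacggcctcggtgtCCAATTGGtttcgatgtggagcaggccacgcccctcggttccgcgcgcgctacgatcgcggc
The matches begin 90, 62 and 59 bases before the start site, and the last pair overlap each other. Promoter windows from 250 bases before to 50 after the start were at hand for 7 of the 10 genes, in 8 windows, and 4 of these held CCAAT on either strand, as did 37.4% of 32851 windows of all genes. No window was at hand for Scd1, Scd2 or Dgat2, so their promoters were not searched. The Acaca window, from 84195188 to 84195487, lay inside the gene as placed above and not at its outer start. None of the 8 held CACGTG, the E-box, or TCACNCCAC, a sterol regulatory element, which 7.15% and 1.24% of all windows held. Thrsp had 2 CCAAT matches, and Acly and 1 of the Me1 windows had 1 each.

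Malic enzyme 1 did not follow the genotype. Me1, on chromosome 9 from 86581371 to 86695953, stood at 107, 314 and 72.3 CPM in Tsk and 83.7, 131 and 125 CPM in WT. Tsk replicates 4 and 6 were within or below the WT range, and the log2 fold change, 0.54 ± 0.49 (SE, edgeR adjusted p = 0.596), was -0.34 ± 0.25 without Tsk replicate 5 (edgeR adjusted p = 0.547). It was the 1 gene of the 10 whose sign turned when that library was left out.

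Elovl6, the elongase that turns palmitate to stearate, varied more among WT than among Tsk libraries. Its level on chromosome 3 from 129532355 to 129638495 was 95.6, 166 and 92.9 CPM in Tsk and 136, 18.3 and 72.2 CPM in WT. WT replicate 1 exceeded 2 of the 3 Tsk libraries and was 7.44 times WT replicate 2, and the log2 fold change was 0.65 ± 0.62 (SE, edgeR adjusted p = 0.619). It was 0.19 without WT replicate 2 and 1.41 without WT replicate 1, and passed in neither fit.

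The desaturases split into 3 patterns. Scd1, the main isoform of fat and sebaceous gland in mice, held 14080.5, 120624 and 8824 counts in Tsk and 5909, 2662 and 3876 counts in WT. As levels these were 729.9, 5640 and 415 CPM in Tsk and 329, 172 and 241 CPM in WT, so the groups did not overlap and Tsk replicate 5 was 9.85 times the mean of the other Tsk libraries. The log2 fold change was 3.19 ± 0.95 (SE, edgeR adjusted p = 0.117) with all libraries and 1.21 ± 0.33 without Tsk replicate 5 (edgeR adjusted p = 0.124), so Scd1 did not pass either way.

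Scd2, an isoform known for its role in the brain and in newborn mouse skin, rose with no library standing apart. It was at 102, 132 and 114 CPM in Tsk and 61.6, 60.3 and 67.0 CPM in WT, from 1963, 2816 and 2432 counts in Tsk and 1107, 930 and 1079 counts in WT. Its standard deviation of log2 CPM was 0.19 in Tsk and 0.08 in WT, against 1.98 and 0.47 for Scd1. The log2 fold change was 0.88 ± 0.14 (SE, edgeR adjusted p = 0.0159). It passed in 4 of the 6 fits that left out 1 library, in all of which it lay between 0.78 and 0.97, and missed the threshold without WT replicate 2 (edgeR adjusted p = 0.0513) and without WT replicate 3 (edgeR adjusted p = 0.0793).

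Scd3, an isoform reported in mouse sebocytes and Harderian gland, showed neither pattern. It stood at 15.2, 13.1 and 25.5 CPM in Tsk and 17.9, 4.86 and 10.2 CPM in WT, with overlapping groups at 0.70 ± 0.43 on the log2 scale (SE, edgeR adjusted p = 0.420). Unlike Fasn and Scd1, it was lowest within Tsk in replicate 5, at 0.643 times the mean of the others. Scd4, the fourth isoform and known from mouse heart, had 6.50, 13.4 and 16.8 counts in Tsk and 4.44, 8.57 and 5.87 counts in WT, and did not pass the filter.

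Per kilobase of exon, Scd1 was the most abundant desaturase in every library. Its level was 462 ± 599 CPM per kb in Tsk and 50.6 ± 16.02 in WT, beside 21.2 ± 2.75 in Tsk and 11.5 ± 0.656 in WT for Scd2 and 5.05 ± 1.86 in Tsk and 3.10 ± 1.85 in WT for Scd3 (SD, n = 3 each). Of the summed level per kilobase of all 4, Scd1 made up 86.6, 97.6 and 75.0% in Tsk and 80.4, 73.7 and 76.3% in WT. Scd2 made up 10.8, 2.04 and 18.5% in Tsk and 13.5, 23.1 and 19.03% in WT. The share of Scd1 was thus above the WT range in Tsk replicates 4 and 5 and within it in replicate 6.

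Thrsp and Dgat2 passed the test only when Tsk replicate 5, or for Dgat2 Tsk replicate 6, was left out of the edgeR fit. Thrsp, on chromosome 7 from 97412938 to 97417730, was at 25.2, 157 and 22.9 CPM in Tsk and 8.68, 13.9 and 11.9 CPM in WT. The log2 fold change was 2.58 ± 0.77 (SE, edgeR adjusted p = 0.124) with all libraries and 1.07 ± 0.20 without Tsk replicate 5 (edgeR adjusted p = 0.0438). Dgat2, the acyltransferase on the same chromosome from 99153658 to 99182719, was at 84.5, 316 and 53.4 CPM in Tsk and 25.6, 33.2 and 31.5 CPM in WT. Its log2 fold change of 2.33 ± 0.63 (edgeR adjusted p = 0.0960) was 1.195 ± 0.21 without that library (edgeR adjusted p = 0.0360), and it also passed without Tsk replicate 6, at 2.74 ± 0.47 (edgeR adjusted p = 0.0423). For both genes the lowest Tsk library exceeded the highest WT library. Leaving a library out left 2 Tsk samples, so these calls rest on fewer samples than the test of all 6.

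**Figure D2:**
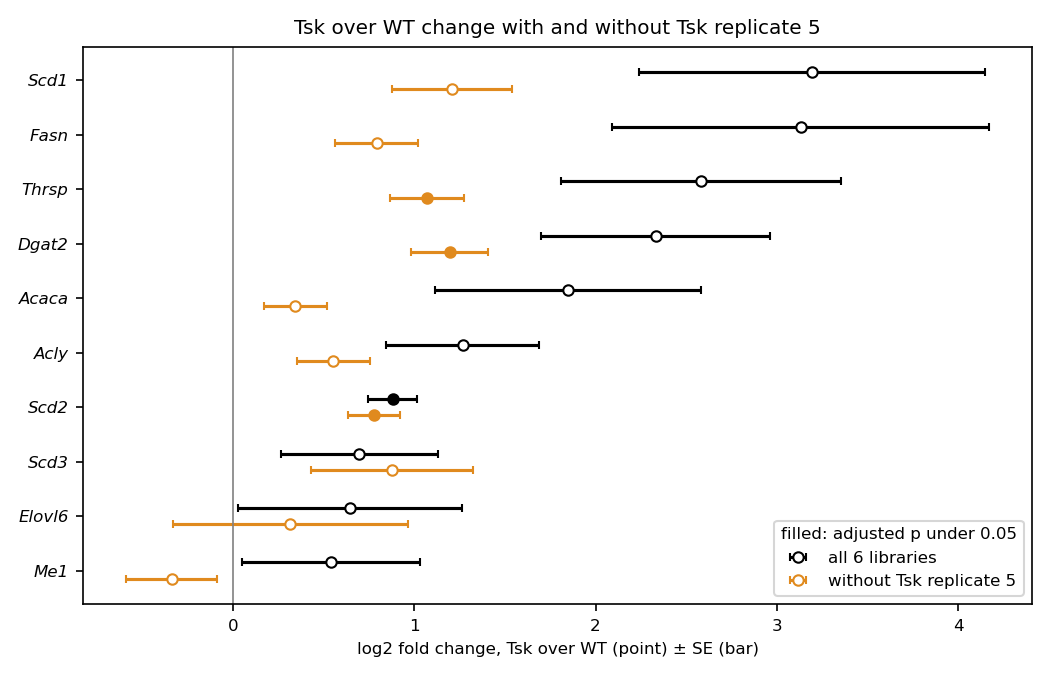
Log2 fold change of Tsk over WT for each of the 10 genes, with bars for the SE, from edgeR on all 6 libraries (black) and without Tsk replicate 5 (orange), where filled points passed an adjusted p of 0.05. Scd2 hardly moves (0.88 and 0.78), whereas Fasn goes to 0.79, Scd1 to 1.21 and Me1 to -0.34 without that library.

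The 10 genes were compared by the root-mean-square distance between their log2 CPM, each centred on its mean over the 6 libraries. Thrsp and Dgat2 were the closest pair, at 0.24, followed by Fasn and Scd1, at 0.25. Scd3 and Elovl6 were each other's nearest, at 0.62, with WT replicate 2 lowest and WT replicate 1 highest of the WT libraries in both. Among 15146 other genes above a low expression floor (mean log2 CPM 1), the nearest to Scd1 were Fasn at 0.25, Cd1d1, an antigen-presenting molecule for lipids, at 0.28, and Prkar2b, a regulatory subunit of protein kinase A, at 0.31. Cd1d1 was at 5.24, 30.8 and 3.91 CPM in Tsk and 2.62, 1.17 and 1.30 CPM in WT, and Prkar2b at 17.8, 127 and 15.7 CPM in Tsk and 8.01, 6.61 and 6.77 CPM in WT. Likeness to Scd1 over these 6 libraries chose both genes, so their peak in Tsk replicate 5 is no separate observation. The nearest to Scd2 were Pttg1ip at 0.05, Cdc42ep4 at 0.06 and Syde2 at 0.06, which rose by 0.83 ± 0.14, 0.82 ± 0.13 and 0.97 ± 0.15 (log2 fold change ± SE, edgeR adjusted p of 0.0189, 0.0171 and 0.0163). Likeness to Scd2 over the same libraries chose these genes too, so their rise and their adjusted p are no separate observation.

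Fat cell markers moved with the genes that peaked in Tsk replicate 5. The 15 adipocyte markers summed to 1752, 5580 and 1277 CPM in Tsk and 821, 1471 and 1157 CPM in WT, so the sums overlapped between the groups, with replicate 5 again the highest. Lpl, Plin4 and Slc2a4 were the most abundant of them in WT replicate 2, at 421, 372 and 225 CPM. That library also had the highest muscle marker sum, and the part of muscle in these markers was not tested. In 9 of the 15 all Tsk libraries exceeded all WT libraries, as in 14.1% of all genes. The mean log2 CPM of the same markers, which weighs each alike, was 6.05, 7.84 and 5.54 in Tsk and 4.61, 5.10 and 4.68 in WT, without overlap. Of the 15, Cfd and Lep passed as higher, as did 2.72% of all genes, and none as lower. The median log2 fold change was 2.33, and 14 were above 0, as were 47% of all genes. Adipoq, the gene of adiponectin, was at 45.0, 222 and 29.6 CPM in Tsk and 12.02, 12.4 and 9.44 CPM in WT. Each marker had counts in every library, and the part of fat content in the lipogenic values was not tested.

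Set against the mean log2 CPM of those 15 markers, 9 of the 10 genes had overlapping groups. Dgat2 was then 0.35, 0.47 and 0.21 log2 units above the markers in Tsk and 0.07, -0.04 and 0.30 in WT, and Thrsp -1.39, -0.54 and -1.01 in Tsk and -1.48, -1.29 and -1.10 in WT. For both genes, and for Me1, the SD of this ratio was smaller than that of the log2 CPM itself in each group. For Fasn, Scd1, Acaca and Acly it was smaller within Tsk and larger within WT. For Scd2, Scd3 and Elovl6 it was larger in both groups. Fasn stood 2.18, 3.86 and 2.17 above in Tsk and 2.83, 1.86 and 2.46 in WT, and Scd1 3.46, 4.62 and 3.16 in Tsk and 3.75, 2.33 and 3.23 in WT, so in replicate 5 both exceeded the markers by more than in any other library. Me1 was the gene without overlap, at 0.69, 0.46 and 0.64 in Tsk and 1.78, 1.94 and 2.29 in WT, lower in Tsk by 1.40 on average. No test was made of these ratios, whose marker mean includes Lpl, Plin4 and Slc2a4.

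Sebaceous gland markers separated the WT libraries instead. The 12 markers summed to 253, 316 and 267 CPM in Tsk and 269, 74.2 and 200.2 CPM in WT, with WT replicate 2 lowest as in Elovl6 and Scd3. The fatty acid 2-hydroxylase gene Fa2h was at 28.7, 28.8 and 41.1 CPM in Tsk and 45.2, 3.95 and 27.1 CPM in WT. Not every marker followed this order, as Mc5r, Awat2, Dgat2l6 and Pm20d1 were lowest among WT libraries in WT replicate 3. Relative to the mean log2 CPM of the 12 markers, Scd3 was at 0.94, 0.34 and 1.47 in Tsk and 0.84, 0.74 and 0.63 in WT. The SD of this ratio among WT libraries was 0.11, against 0.93 for the log2 CPM of Scd3. Among Tsk libraries it was not smaller, at 0.56 against 0.50. None of the 12 markers passed, where 2.72% of all genes were called higher, and each had counts in every library. Their median log2 fold change was 0.35, with 11 above 0 (47% of all genes). In 3 all Tsk libraries exceeded all WT libraries, as in 14.1% of all genes. Without WT replicate 2, mean log2 CPM was higher in Tsk for 8 of the 12. The list includes Cidea, which brown fat also expresses, and its part in the values of Scd3 and Elovl6 was not tested.

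**Figure D3:**
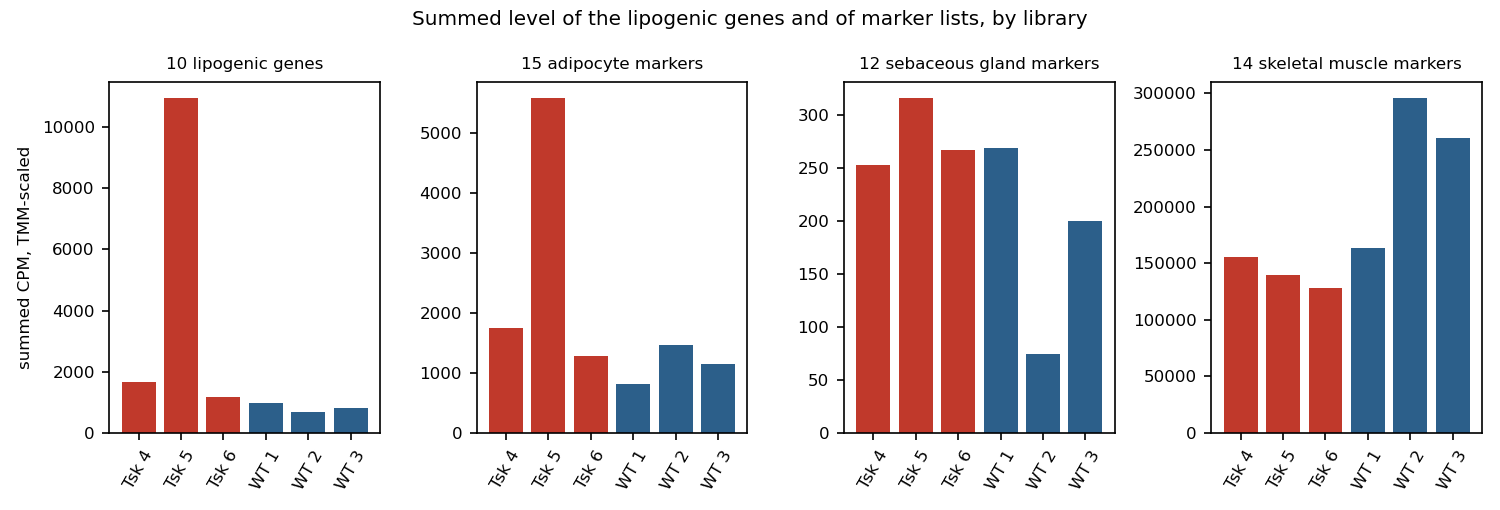
Summed TMM-scaled CPM in each library (Tsk red, WT blue) of the 10 lipogenic genes and of adipocyte, sebaceous gland and skeletal muscle markers, each on its own axis from 0. The lipogenic and adipocyte sums are highest in Tsk replicate 5, the sebaceous sum is lowest in WT replicate 2, and the muscle sum is highest in WT replicates 2 and 3.

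Scd2 was also set beside markers of nerve, dermis and muscle. Schwann cells make myelin lipids and express Scd2, and their 10 markers summed to 317, 391.6 and 508 CPM in Tsk and 319, 214 and 225 CPM in WT. Their median log2 fold change was 0.62, with 10 above 0 (47% of all genes) and Pmp22 the 1 that passed as higher (2.72% of all genes). The 10 dermal fibroblast markers had a median of 1.10 and summed to 20689, 19436 and 43829 CPM in Tsk and 6684, 11247 and 11785 CPM in WT. All 10 were above 0, and in 6 all Tsk libraries exceeded all WT libraries, as in 14.1% of all genes. Dpt was the 1 that passed as higher. The order of Scd2 within Tsk, highest in replicate 5, matched neither sum. Skeletal muscle markers summed to 155702, 139138 and 128078 CPM in Tsk and 163189, 295573 and 260303 CPM in WT, and in 8 of the 14 all Tsk libraries lay below all WT libraries, as in 10.6% of all genes. Epidermis markers had a median of -0.25, with 4 of 10 above 0 and Lor the 1 that passed as higher. Thermogenic adipocyte markers had a median of -0.26, with 3 of 7 tested above 0 and 0 passing by edgeR, so they did not move as 1 group. Those below 0 were Cox7a1, Cox8b, Ppargc1a and Cpt1b. Among WT libraries each was lowest in replicate 1 and highest in replicate 2, as was the muscle marker sum. The part of muscle in this list was not tested. The part of these cell types in the Scd2 values was not tested.

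Of the rest of the pathway, the genes that add double bonds beyond the first rose in Tsk. Over 5 further lists of lipid synthesis, 4 of 58 genes tested (6.90%) passed as higher, against 2.72% of all genes, and none as lower, against 0.696%. All 4 were among the 13 tested genes of elongation and desaturation, a list with a median log2 fold change of 0.59. The lists of other fatty acid synthesis genes, NADPH supply, glycerolipid synthesis and regulators had 0 of 10, 0 of 8, 0 of 13 and 0 of 14 past the threshold by edgeR, with medians of 0.16, 0.55, 0.32 and 0.14. At an unadjusted edgeR p under 0.05, 1, 4, 4 and 4 of their genes were higher, as were 12.1% of all genes. With DESeq2, 10 of the 58 passed, where 7.48% of all genes were called in either direction.

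Fads1 and Fads2, the delta-5 and delta-6 desaturases that make long polyunsaturated fatty acids, and their relative Fads3 had no WT library that reached the lowest Tsk library. Fads1 was at 14.3, 20.6 and 20.4 CPM in Tsk and 6.90, 7.52 and 7.89 CPM in WT, and rose by 1.31 ± 0.18 on the log2 scale (SE, edgeR adjusted p = 0.0108). Fads2 was at 7.52, 9.16 and 9.22 CPM in Tsk and 3.67, 3.82 and 4.53 CPM in WT, and rose by 1.11 ± 0.18 (edgeR adjusted p = 0.0174). In neither gene did Tsk replicate 5 stand apart from replicate 6. Fads3 was at 25.1, 49.6 and 21.4 CPM in Tsk and 8.07, 7.71 and 6.90 CPM in WT, and rose by 2.08 ± 0.31 (edgeR adjusted p = 0.0156), or by 1.62 without Tsk replicate 5. Elovl1, an elongase of very long chains, was at 79.3, 55.7 and 53.6 CPM in Tsk and 37.1, 29.0 and 38.8 CPM in WT, and rose by 0.85 ± 0.18 (edgeR adjusted p = 0.0445). Of the 6 fits that left out 1 library, Fads1 and Fads3 passed in 5, Fads2 in 4 and Elovl1 in 1.

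**Figure D4:**
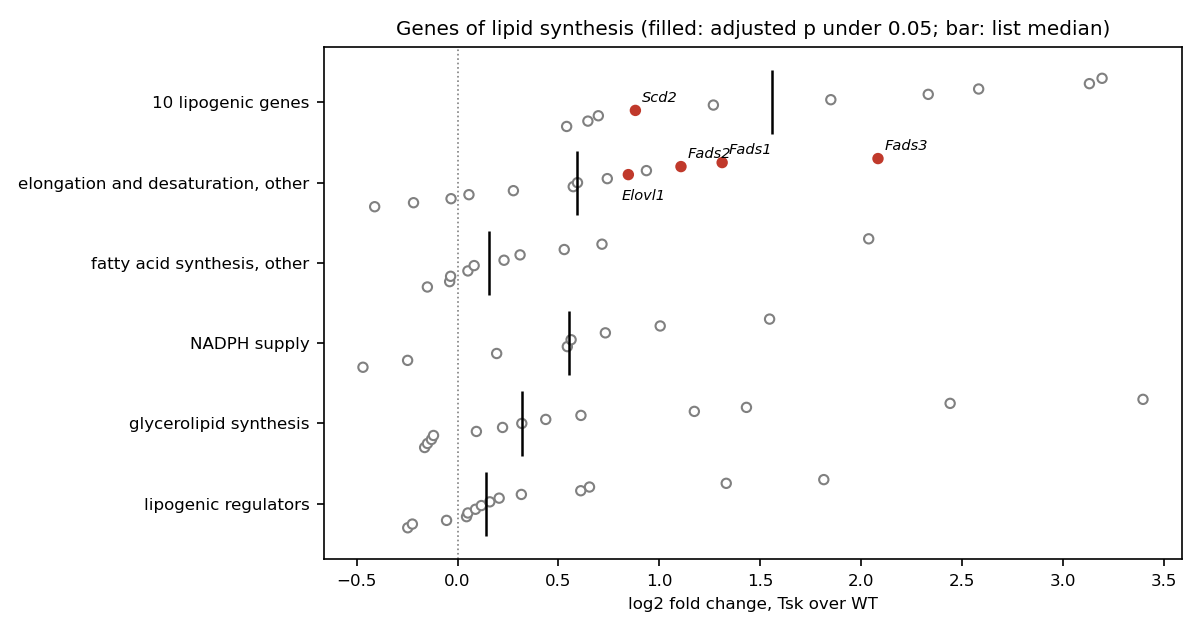
Log2 fold change of Tsk over WT for the tested genes of each list (points, filled where the edgeR adjusted p was under 0.05) with the list median as a black bar. The filled points are Scd2 among the 10 lipogenic genes and Fads1, Fads2, Fads3 and Elovl1 among the genes of elongation and desaturation.

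The most abundant genes of the other lists changed little or did not pass. Acacb, the carboxylase isoform of muscle mitochondria, stood at -0.03 ± 0.24 and Pdhb, a pyruvate dehydrogenase subunit, at 0.05 ± 0.32 (log2 fold change ± SE, edgeR adjusted p of 0.957 and 0.952). In the NADPH list H6pd stood at 0.19 ± 0.21 and Pgd at 0.73 ± 0.25 (edgeR adjusted p of 0.670 and 0.149). Gpd1, which makes glycerol 3-phosphate, stood at -0.16 ± 0.35 and the acyl-CoA synthetase Acsl1 at 0.61 ± 0.40 (edgeR adjusted p of 0.844 and 0.447). Of these genes, skeletal muscle also expresses several, and the part of the lower muscle marker levels in Tsk in these values was not tested.

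Among regulators, Srebf1, the gene of the sterol-regulated factor that drives lipogenesis, was at 72.6, 120 and 60.7 CPM in Tsk and 51.0, 58.4 and 56.4 CPM in WT. Its groups did not overlap, and it did not pass, at 0.61 ± 0.24 (SE, edgeR adjusted p = 0.197) or 0.27 without Tsk replicate 5. Mlxipl, the gene of the carbohydrate-response factor ChREBP, stood at -0.22 ± 0.23 (edgeR adjusted p = 0.640), with overlapping groups. Further genes, named after their values were seen, had their peak in Tsk replicate 5 as Fasn did. The citrate carrier Slc25a1 was at 20.4, 105 and 18.5 CPM in Tsk and 16.7, 7.52 and 10.6 CPM in WT, and the acyltransferase Agpat2 at 9.43, 70.6 and 7.53 CPM in Tsk and 5.12, 5.64 and 5.40 CPM in WT. The adipogenic factor Pparg was at 7.57, 29.8 and 6.87 CPM in Tsk and 4.95, 3.82 and 3.79 CPM in WT. None of these 3 passed (edgeR adjusted p of 0.175, 0.177 and 0.122), though in each all Tsk libraries exceeded all WT libraries.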

How the data were processed

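RNA of whole dorsal skin was sequenced from 3 Tsk and 3 WT samples. Per the labels' protocols, ribosomal RNA was removed and libraries were made with a strand-marking dUTP kit. STAR, Partek 7.0, bcl2fastq 2.19.1.403 and the mm10 build are named, per the submitters' processing notes. How reads were assigned to genes is not given in the sources used here. Deposited by the authors were expected counts per gene, with 34.8 to 37.3% of values in a library not whole. They also deposited CPM, and a TMM-normalised signal equal to that CPM times 1 factor per library within 0.792%.

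Expected counts were rounded and tested with edgeR 4.0.16 (R 4.3.3) by the robust quasi-likelihood F-test with TMM factors, after the default filter (minimum count 10, minimum total 15), which kept 19971 genes. Genes were called at an adjusted p under 0.05 (Benjamini-Hochberg, over all genes). The SE is the log2 fold change divided by the square root of F. The edgeR step was tested on simulated data. DESeq2 1.42.0 and limma 3.58.1 were alternatives. Every pair of libraries differed beyond sampling noise (smallest chi-square per degree of freedom 8.90). Sampling noise here means counting error only, whereas the edgeR test also covers the spread among libraries. Counts of reads without molecular identifiers can hold duplicate copies, which counting error does not cover.

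Exon lengths are merged GENCODE M21 exons, and gene positions are from that annotation. Of 151 listed symbols all matched a row, 1 by a synonym. Named genes are the 10 members, Scd4, genes of pathway lists past the threshold, the 2 most abundant of a list with none, and the 3 nearest to Scd1 and to Scd2. Slc25a1, Agpat2 and Pparg, and the single marker genes Adipoq, Cfd, Lep, Fa2h, Mc5r, Awat2, Dgat2l6, Pm20d1, Cidea, Pmp22, Dpt and Lor, fall outside this rule and were named after their values were seen. The same holds for Lpl, Plin4, Slc2a4, Cox7a1, Cox8b, Ppargc1a and Cpt1b. The members and lists were chosen with earlier results of these data known.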

Additional observations from a re-analysis of the deposited data

How the results depend on the processing

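No paired analysis was possible because the labels number the WT samples 1 to 3 and the Tsk samples 4 to 6, so the groups share no replicate number. Of all genes tested, 683 changed, and the count was 1791 with library totals alone, 1157 without an expression filter, 1544 with DESeq2, 1916 with limma-trend on the deposited CPM and 1279 with limma-trend on the TMM-normalised signal. Leaving out 1 library gave 63 (without WT replicate 3) to 1381 (without WT replicate 1), with 328 without WT replicate 2, 402 without Tsk replicate 5 and 388 without Tsk replicate 6. The median log2 fold change of all genes was 0.25 with library totals alone, where 1695 genes were higher and 96 lower, against -0.03 with TMM, where 544 were higher and 139 lower. It was 0.23 with limma-trend on the deposited CPM (1813 higher, 103 lower) and 0.11 on the TMM-normalised signal (1166 higher, 113 lower). Of the 10 lipogenic genes, 1 changed, and 3 did with DESeq2, where Acly (1.28, adjusted p = 0.0166) and Dgat2 (2.35, adjusted p = 0.0335) joined Scd2 and Fasn received no adjusted p. The count was 0 without WT replicate 2 or WT replicate 3, 2 without Tsk replicate 6 and 3 without Tsk replicate 5. Scd2 passed under all 10 alternatives that kept all libraries. The median log2 fold change of the 10 genes ran from 0.79 to 1.91 with 1 library left out, the lowest without Tsk replicate 5. Of the 5 further lists, 4 genes changed, 10 with DESeq2, 8 with limma-trend on the deposited CPM and 0 to 7 with 1 library left out, lowest without WT replicate 3 and highest without WT replicate 1, and 2 without WT replicate 2. The cause of these shifts was not tested. Scd4, at 4.44 to 16.8 counts a library, was too shallow to compare.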
